A study of Mus musculus with 2 samples.

Results

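F-box genes encode the substrate-binding subunits of SCF ubiquitin ligases, and the transcripts of 65 of them were measured here in RNA that was recovered with the FLAG-tagged RNA-binding protein Nanos2 from mouse fetal testis, against input RNA. The 65 genes were chosen by name, as the array probes whose symbol in the series table begins with Fbxo, Fbxl or Fbxw and a number. They comprised 32 Fbxo, 20 Fbxl and 13 Fbxw genes, read by 111 of the 41174 probes and out of 20162 named genes on the array. The family was picked with the FLAG IP against input values of these same arrays known, so every value of an F-box gene below is a description without a test. Of the 65 genes, 60 had a probe that was clearly above background on each array of the input or of the FLAG IP and entered the fit, and 5 did not (Fbxo24, Fbxo44, Fbxw14, Fbxw16 and Fbxw19).

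The tissue was male gonad of MCH strain mice at embryonic day 14.5. Both groups carried the transgene labelled Tg-Nanos2 enhancer-3xFLAG-Nanos2-3'UTR, in which the Nanos2 enhancer drives a FLAG-tagged Nanos2 with the Nanos2 3' untranslated region. The FLAG IP group was RNA recovered with anti-FLAG M2-Agarose, and the input group was RNA without antibody treatment. Each group had 2 one-colour Agilent arrays, named replicates 1 and 2 by the labels and biological duplicates by the series. How many gonads went into each RNA is not given in the labels. A control precipitation (no transgene, or another antibody) was not analysed here, so binding to Nanos2 and recovery by the precipitation itself cannot be told apart.

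In an SCF ligase the scaffold cullin Cul1 carries the RING protein Rbx1 at its far end, which brings in the ubiquitin-loaded E2 enzyme, and the adaptor Skp1 at its near end, which holds the F-box motif of a single exchangeable F-box protein. The rest of that F-box protein grips the substrate, through leucine-rich repeats in the Fbxl group, WD40 repeats in the Fbxw group and various other domains in the Fbxo group. Attachment of the ubiquitin-like protein Nedd8 to the cullin switches the ligase on, the COP9 signalosome takes Nedd8 off, and Cand1 swaps F-box proteins on the core. In germ cells F-box proteins are best known for timing the cell cycle. Nanos2 is made by male germ cells after they enter the testis and is known to keep them out of meiosis and to act on mRNAs together with the CCR4-NOT deadenylase.

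FLAG IP replicate 1 was the dimmest array. Its processed signal had a 75th percentile of 55.7 intensity units, 10.9-fold under the 608 of FLAG IP replicate 2, and the input arrays had 1026 and 1038. Levels below are log2 of the processed signal minus that percentile of the same array, so 0 is the array's 75th percentile, and they are compared only within a probe. The lowest level well above background was -3.35 there against -6.34 on the other FLAG IP array. The median SD between the arrays of a group over the F-box genes was 0.046 for the input and 0.29 for the FLAG IP. Per the file headers, 3 arrays shared a slide and input replicate 1 lay on another.

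Among the 60 F-box genes tested, 27 were called higher in the FLAG IP, 8 were called lower and 25 were not called, by limma with Benjamini-Hochberg adjustment over all 15277 genes at a threshold of 0.05. That is 45.0% higher and 13.3% lower, where 28.0% of all genes tested were called higher and 25.4% lower. The median difference was 0.80 on the log2 scale over the F-box genes, with a range from -2.15 to 3.36, and 0.07 over all genes. The F-box median stood 0.77 above the input mean on FLAG IP replicate 1 and 0.66 above it on the second array. In 49 genes the FLAG IP arrays and the input arrays did not overlap, 37 of them with the FLAG IP higher and 12 with it lower. Over all genes these shares were 42.0% higher and 38.2% lower. Nothing is read from these counts about the family, since this contrast was used to pick it.

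The count of calls depended on which array was left out. Without input replicate 1 it was 12 higher and 3 lower, and without input replicate 2 it was 13 and 4. When FLAG IP replicate 1 was dropped it was 36 and 16, and when FLAG IP replicate 2 was dropped it was 37 and 13. With normexp background correction it was 8 and 3. Fbxl4, Fbxl10, Fbxo32, Fbxo36 and Fbxo43 stayed called higher, and Fbxo4 and Fbxw17 stayed called lower, in each of the 13 alternatives computed gene by gene. The fits without an array leave a group with 1 array, which is taken to vary like the other group, and without a FLAG IP array the spread comes from the closer input arrays alone, so staying called there says little. The slide block gives the same estimates as leaving out input replicate 1. In all, 27 of the called genes lost their call in at least 1 of them.

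**Figure D1:**
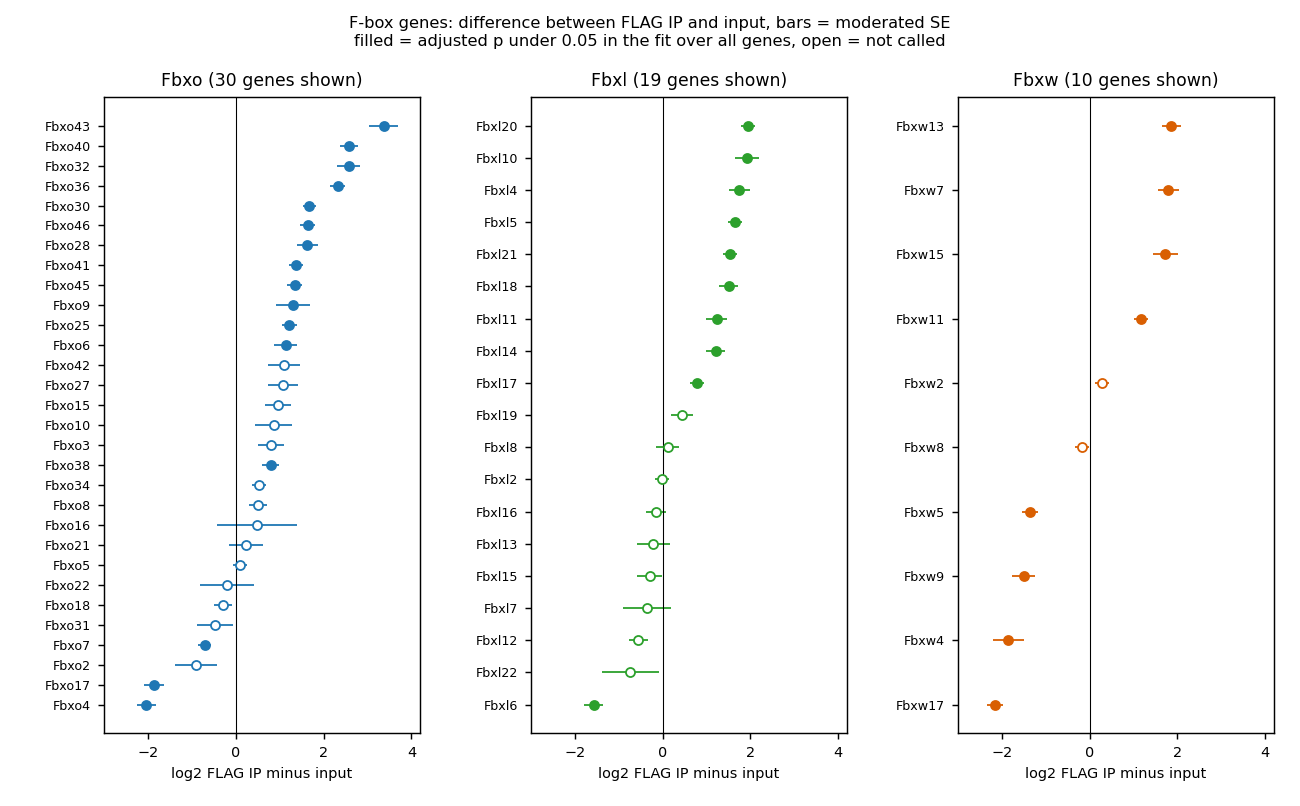
Differences between FLAG IP and input on the log2 scale (horizontal axes) for 59 of the 60 F-box genes tested, in a panel each for Fbxo, Fbxl and Fbxw, with the moderated standard error as bars, filled points for called genes and open points for genes not called. Fbxo43 has the highest value at 3.36 and Fbxw17 the lowest at -2.15, and the Fbxw genes lie on either side of 0.

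The largest difference of the family was that of Fbxo43, also called Emi2, which holds the anaphase-promoting complex (APC/C, the other large cell cycle ubiquitin ligase) in check during meiosis. Its level was -5.12 and -4.38 on the input arrays and -1.60 and -1.17 on the FLAG IP arrays. Both FLAG IP arrays thus stood well above both input arrays, by 3.36 ± 0.34 (SE, n = 2 arrays per group) or 10.3-fold. Its input mean of -4.75 lay under -3.35, the lowest level read well above background on FLAG IP replicate 1. Another Fbxo43 probe differed by 2.94, but it was not well above background on any array, so it gives no second reading. Differences of the F-box probes that did not pass the filter ran up to 3.81. The close relative of Fbxo43, Fbxo5 or Emi1, restrains the APC/C in dividing cells. Fbxo5 read 1.60 and 1.54 in the input and 1.69 and 1.64 in the FLAG IP, a difference of 0.09 ± 0.16 that was not called and that turned to -0.31 with normexp background correction.

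Fbxo4, which is known for directing cyclin D1 to degradation, showed the opposite pattern. It read 1.25 and 0.93 in the input and -0.82 and -1.07 in the FLAG IP, with no overlap, and stood lower by 4.10-fold (-2.03 ± 0.21). Fbxo31, another F-box protein linked to cyclin D1, read 3.65 and 3.70 in the input and 2.67 and 3.74 in the FLAG IP. Its FLAG IP arrays lay 1 on each side of the input, and it was not called (-0.47 ± 0.41). Of the cell cycle F-box genes with other names, Ccnf, which encodes cyclin F, rose by 0.98 ± 0.18 (limma adjusted p = 0.0143), from 0.73 and 0.65 to 1.79 and 1.55. Skp2, whose product targets the inhibitor p27, read 0.09 and 0.03 against -0.10 and -0.18 and did not pass (limma adjusted p = 0.348).

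Fbxo32, Fbxo40 and Fbxo30, grouped here after their values were seen, are best known from muscle. Fbxo32, or atrogin-1, is an F-box protein of wasting muscle. It read -0.41 and -0.53 in the input and 2.39 and 1.80 in the FLAG IP, 5.93-fold higher (2.57 ± 0.26). Fbxo40, which in muscle acts on the insulin receptor substrate IRS1, read -4.70 and -4.74 in the input and -1.94 and -2.35 in the FLAG IP (2.58 ± 0.21). Fbxo30, a regulator of muscle mass also called MUSA1, read -0.25 and -0.27 against 1.40 and 1.43 (1.67 ± 0.15). In each of these 3 genes every FLAG IP array lay more than 1 log2 unit above every input array. The input mean of Fbxo40, -4.72, lay under -3.35, the lowest level read well above background on FLAG IP replicate 1. With normexp background correction Fbxo40 and Fbxo30 lost their calls.

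Fbxo36, an F-box gene with little known about its substrates, read -0.81 and -0.85 in the input and 1.58 and 1.39 in the FLAG IP, and stood 4.98-fold higher (2.32 ± 0.17). Fbxo15 is a marker of pluripotent cells. Its level was 1.73 and 1.76 in the input and 2.35 and 3.07 in the FLAG IP, so the groups did not overlap, but the difference of 0.96 ± 0.29 was not called. Fbxo7, mutated in a familial parkinsonism, stood lower, from 1.29 and 1.27 to 0.54 and 0.60 (-0.71 ± 0.16). The call for Fbxo7 was lost with normexp background correction and with the slide as a block. Fbxo11 and Fbxo47 matched no probe under the rule and were not analysed here.

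The Fbxo genes called higher beyond these, named after their values were seen, were Fbxo46 (1.63 ± 0.16), Fbxo28 (1.63 ± 0.24), Fbxo41 (1.36 ± 0.16), Fbxo45 (1.34 ± 0.17), Fbxo9 (1.30 ± 0.38), Fbxo25 (1.22 ± 0.17), Fbxo6 (1.14 ± 0.26) and Fbxo38 (0.79 ± 0.20). None of them kept its call in every alternative. Other probes gave smaller values for some of these genes, none of them called: 0.86 ± 0.26 and 0.05 ± 0.16 for Fbxo28, 0.74 ± 0.29 for Fbxo46 and 0.40 ± 0.21 for Fbxo25. Fbxo45 and Fbxo41 are best known from neurons. Fbxo9 had the widest error of these: its input arrays read 1.58 and 1.64 and its FLAG IP arrays 3.41 and 2.42. In all, 13 of the 30 Fbxo genes tested were called higher, 3 lower and 14 not (43.3% higher and 10% lower, beside 28.0% and 25.4% of all genes), and the Fbxo median was 0.91. The uncalled Fbxo genes ranged from -0.91 in Fbxo2 to 1.10 in Fbxo42. Fbxo18, listed today as the DNA helicase gene Fbh1, was among them at -0.29 ± 0.21.

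The sugar-recognising F-box proteins bind N-glycans on misfolded glycoproteins. Their genes lie in 2 groups of neighbours in the RefSeq gene order, Fbxo6, Fbxo44 and Fbxo2 next to each other and Fbxo27 beside Fbxo17. Neighbours did not share a call. Fbxo6 was called higher, from 1.77 and 1.65 in the input to 3.13 and 2.56 in the FLAG IP. Fbxo2 read 4.48 and 5.15 in the input and 4.46 and 3.36 in the FLAG IP on its brightest probe, which was not called (-0.91 ± 0.48). On that probe the input arrays differed from each other, and 1 of them matched FLAG IP replicate 1 closely. The other Fbxo2 probes lay on the side of Fbxo6, at 1.14 ± 0.61 and 1.45 ± 0.58, and were not called either. Fbxo27 read -0.34 and -0.35 against 1.15 and 0.31 and was not called (1.07 ± 0.33). Fbxo17 was called lower, from -1.45 and -1.40 to -3.07 and -3.51 (-1.86 ± 0.22). It passed the filter through the input alone, where it is high, and cleared background on a single FLAG IP array. The difference of Fbxo17 shrank to -0.22 with normexp background correction and lost its call. Fbxo44 was not well above background.

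**Figure D2:**
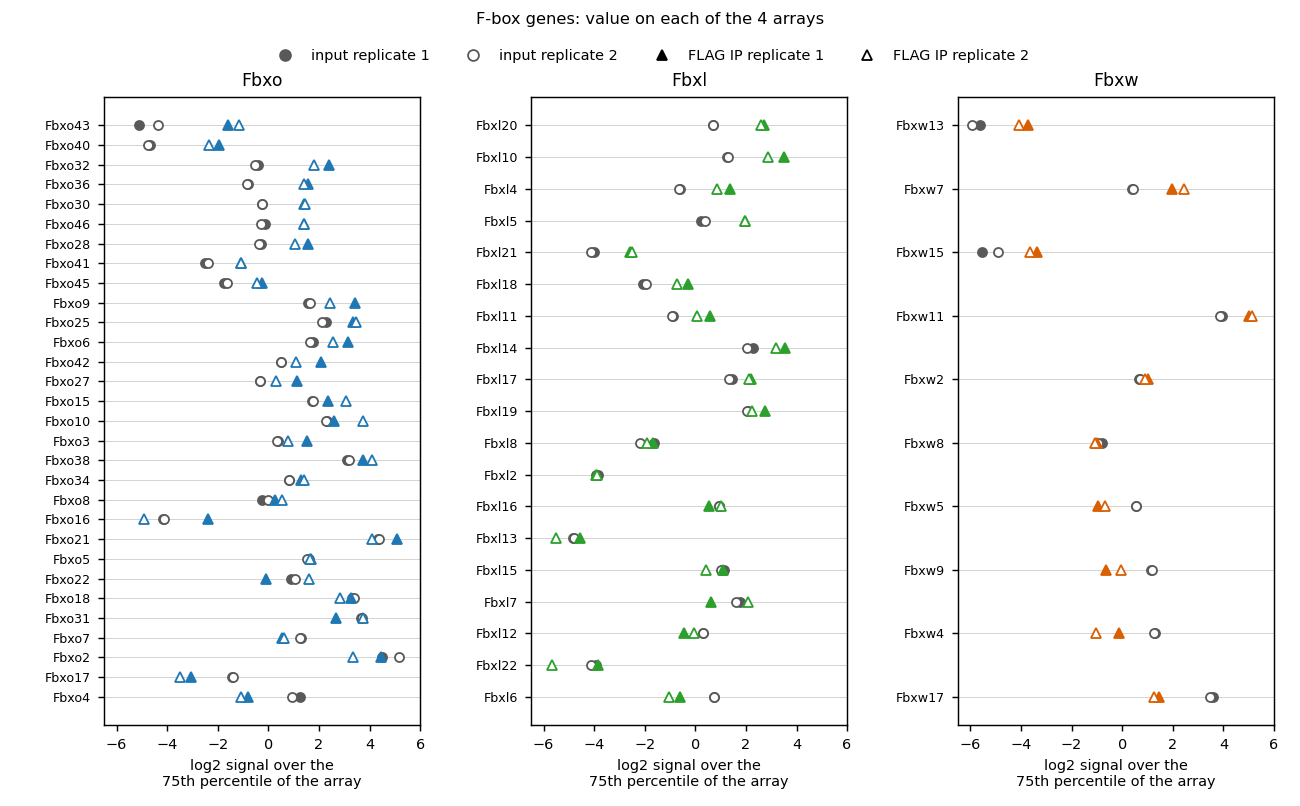
Level of 59 of the 60 F-box genes tested on each of the 4 arrays (log2 of the signal over the array's 75th percentile, horizontal axes), with grey circles for the input arrays and coloured triangles for the FLAG IP arrays, filled for replicate 1 and open for replicate 2. In Fbxo43, Fbxo32 and Fbxl20 both triangles lie to the right of both circles, in Fbxo4 and Fbxw17 both lie to the left, and in Fbxo5 all 4 points lie between 1.54 and 1.69.

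In the Fbxl group, 10 of 20 genes were called higher, 1 lower and 9 not (50% higher and 5% lower, beside 28.0% and 25.4% of all genes), with a median of 0.61. Fbxl21, which binds the cryptochromes of the circadian clock, read -3.996 and -4.13 in the input and -2.58 and -2.49 in the FLAG IP (1.53 ± 0.16) on its brightest probe. Its other probe, well above background on 1 FLAG IP array, gave 0.15 ± 0.23 and was not called. On the brightest probe both FLAG IP arrays thus stood above both input arrays. The input mean of that probe, -4.06, lay under -3.35, the lowest level read well above background on FLAG IP replicate 1. The call for Fbxl21 was lost with normexp background correction and with the slide as a block.

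Fbxl10 and Fbxl11, listed today as Kdm2b and Kdm2a, encode histone demethylases that bind unmethylated CpG islands besides carrying an F-box. Fbxl10 read 1.27 and 1.28 in the input and 3.52 and 2.87 in the FLAG IP, 3.79-fold higher (1.92 ± 0.28). Fbxl11 read -0.86 and -0.92 against 0.59 and 0.08 (1.23 ± 0.24). Fbxl10 kept its call in every alternative and Fbxl11 did not.

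Fbxl20, a synaptic F-box protein also called Scrapper, read 0.71 and 0.70 in the input and 2.71 and 2.59 in the FLAG IP, 3.85-fold higher (1.94 ± 0.16). Fbxl4, a mitochondrial F-box protein that limits mitophagy, read -0.61 and -0.65 against 1.36 and 0.87 (1.75 ± 0.23). Fbxl5, the iron-sensing receptor that removes the iron regulatory protein IRP2, read 0.24 and 0.36 against 1.96 on both FLAG IP arrays (1.66 ± 0.16) on its brightest probe, while its other probes gave 0.94 ± 0.16, called higher, and 0.23 ± 0.22, not called. These 3 genes were called higher with no overlap between groups, and Fbxl20 and Fbxl5 lost their calls with normexp background correction. Fbxl18 (1.51 ± 0.22) and Fbxl14 (1.21 ± 0.21), named after their values were seen, were also called higher. Both lost their calls with normexp background correction and with the slide as a block. The other probe of Fbxl14 gave 0.18 ± 0.22 and was not called. Fbxl14 is known for its action on the Snail transcription factors.

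Fbxl6 was the single Fbxl gene called lower. It read 0.73 and 0.75 in the input and -0.62 and -1.04 in the FLAG IP, 2.97-fold lower (-1.57 ± 0.21). Its call was lost with normexp background correction and with the slide as a block. Fbxl12 read 0.31 on each input array and -0.45 and -0.04 in the FLAG IP, and was not called (-0.55 ± 0.21). Fbxl7 read 1.78 and 1.62 in the input and 0.61 and 2.10 in the FLAG IP, so that its FLAG IP arrays fell on either side of the input. Without FLAG IP replicate 1 its difference turned from -0.35 to 0.40.

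Of the 10 Fbxw genes tested, 4 were called higher, 4 lower and 2 not (40.0% each way, beside 28.0% and 25.4% of all genes), and the median was 0.05. The 4 called higher include Fbxw13 and Fbxw15, which were not well above background on FLAG IP replicate 1. Fbxw7, the receptor for cyclin E, Myc and Notch, read 0.40 and 0.43 in the input and 1.96 and 2.46 in the FLAG IP, 3.46-fold higher (1.79 ± 0.23). Fbxw11, or beta-TrCP2, which recognises phosphorylated beta-catenin and the NF-kappaB inhibitor IkappaB, read 3.94 and 3.86 against 5.002 and 5.13, 2.25-fold higher (1.17 ± 0.16). Neither gene overlapped between groups, and both lost their calls with normexp background correction, Fbxw11 also with the slide as a block. Btrc, the paralogue of Fbxw11 that shares its substrates, read -1.53 and -1.50 in the input and -2.08 and -1.07 in the FLAG IP and did not pass (-0.06 ± 0.39, limma adjusted p = 0.91).

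Fbxw17 had the most negative value of the whole family. It read 3.57 and 3.46 in the input and 1.46 and 1.27 in the FLAG IP, 4.45-fold lower (-2.15 ± 0.17). Fbxw4, or dactylin, read 1.29 and 1.26 against -0.13 and -1.02 (-1.85 ± 0.35). Fbxw9 read 1.13 and 1.19 against -0.65 and -0.04 (-1.50 ± 0.27). In these 3 genes every FLAG IP array lay more than 1 log2 unit below every input array. Fbxw5, which serves both SCF and Cul4 ligases, was lower in the same way, from 0.55 and 0.56 to -0.95 and -0.67 (-1.36 ± 0.18). Fbxw4 and Fbxw5 lost their calls with normexp background correction and with the slide as a block, and Fbxw9 with the slide as a block.

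Fbxw8, which works with Cul7 in place of Cul1, read -0.78 and -0.95 in the input and -1.01 and -1.07 in the FLAG IP and was not called (-0.17 ± 0.17). Fbxw2 was not called either (0.28 ± 0.16). Fbxw13 and Fbxw15 belong to a mouse cluster of closely similar genes, and a probe may read more than 1 of them. In the RefSeq order the cluster runs Fbxw13, Fbxw14, Fbxw16, Fbxw19 and Fbxw15, each within 3 genes of the next. Fbxw13 read -5.63 and -5.92 in the input and -3.73 and -4.10 in the FLAG IP. Fbxw15 read -5.54 and -4.91 against -3.37 and -3.63. Both were called higher, but on FLAG IP replicate 1 they lay below the lowest level well above background of that array. The call for Fbxw13 was lost with normexp background correction, and that for Fbxw15 also with the slide as a block.

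Dim transcripts were read less well on FLAG IP replicate 1. Of the 60 genes tested, 54 were well above background on all 4 arrays, and 6 passed through the input alone (Fbxl2, Fbxl13, Fbxl22, Fbxo17, Fbxw13 and Fbxw15). Fbxl22 read -3.94 and -4.11 in the input and failed that mark on each FLAG IP array, at -3.85 and -5.67, and as the lowest readable level of FLAG IP replicate 1 lay above its input level, no fold is given for it. For 9 tested genes the mean input level was under -3.35, the lowest level read well above background on FLAG IP replicate 1. Of the 9, 5 were called higher (Fbxl21, Fbxo40, Fbxo43, Fbxw13 and Fbxw15) and 0 lower. The share called among all genes this dim was not computed, so nothing is read from these counts. Without these 9 genes, 22 of 51 were called higher and 8 lower, and the median was 0.79. Among all genes at or above that input level, 27.1% of 12491 were called higher and 30.3% lower. Over all genes tested these shares were 28.0% and 25.4%, so genes under that level were called lower less often than the brighter ones. Of the 111 F-box probes, 22 stayed below the filter: just outside it, their levels ran from -8.99 to -4.995 in the input, from -5.09 to -2.97 on the dimmer FLAG IP array and from -8.21 to -3.32 on the brighter one. The differences of these probes at background ran from -0.22 to 3.81.

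The arrays carried several probes for many of the genes, each reading a different stretch of the transcript. Of the 89 probes that passed, fitted one by one, 36 were called higher and 8 lower, where 24.6% of all named probes were called higher and 23.4% lower. Of the 23 genes with more than 1 such probe, 6 had every probe called higher, among them Fbxw7 (1.79 and 1.88), Fbxl10 (1.92 and 1.32), Fbxo30 (1.67, 1.65 and 2.73), Fbxo45 (1.34 and 1.59) and Fbxo6 (1.14 and 0.97). For Fbxo10 and Fbxo42 the brightest probe was not called, while the other was called higher (1.54 ± 0.29 and 1.41 ± 0.23). In 8 genes none of the probes was called, and in 0 genes were probes called in opposite directions. Across all 5943 genes with several probes, 119 (2%) had probes called in opposite directions. Over those genes, the shares with every probe called higher or with no probe called were not computed. Nothing is thus read from the 6 and the 8 genes. The probes of an F-box gene differed by 0.76 at the median, and by under 1 in 14 of the 23 genes.

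In 5 of the 23 genes the probes lay on opposite sides of 0, where 27.6% of all genes with several probes did so. For Fbxl17, whose product controls the pairing of BTB proteins, the brightest probe gave 0.78 ± 0.16 and was called higher, from 1.45 and 1.32 to 2.20 and 2.12, while the other gave -1.34 ± 0.90. That other probe passed through the input alone and was not well above background on either FLAG IP array, so its value and the mean of both probes, -0.28, rest on a reading at background. The call for Fbxl17 was lost with normexp background correction and with the slide as a block. Fbxo2 gave -0.91 on its brightest probe and 1.14 ± 0.61 and 1.45 ± 0.58 on the others. Fbxo3 gave 0.80 and -0.75 ± 0.44, Fbxo22 gave -0.20 and 0.56 ± 0.21, and Fbxl22, with neither probe well above background on both FLAG IP arrays, gave -0.73 and 0.39 ± 0.31. Of these 5 genes, Fbxl17 alone had a probe that was called. A further probe, listed in the file under an older clone symbol that RefSeq gives as Fbxo31, was outside the rule and gave 0.58 ± 0.23, opposite in sign to the -0.47 of the Fbxo31 probe. Neither was called.

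**Figure D3:**
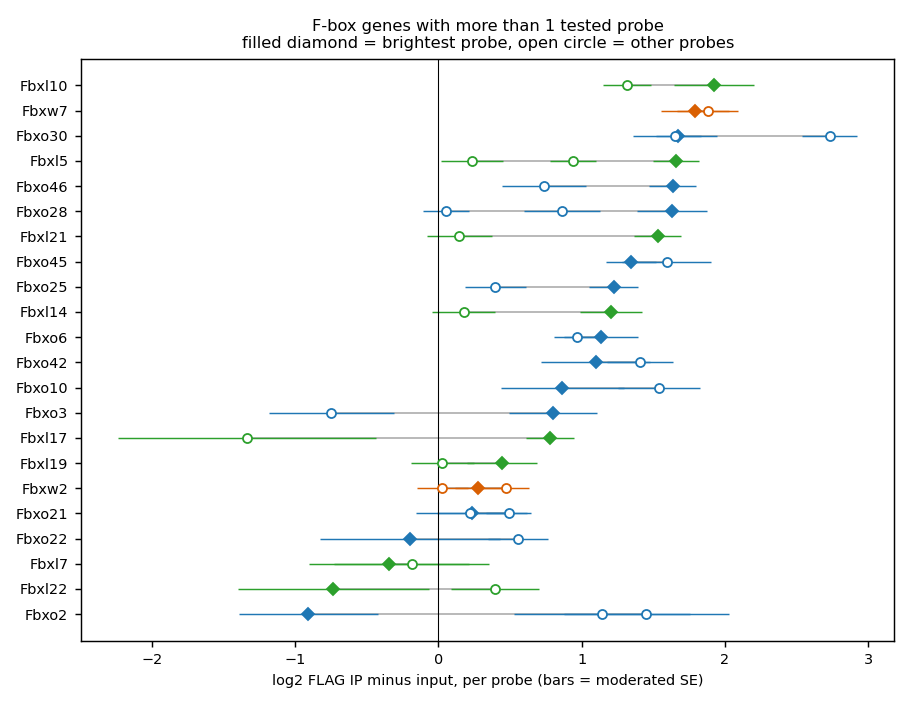
Difference between FLAG IP and input on the log2 scale (horizontal axis) for every passing probe of 22 of the 23 F-box genes with more than 1 such probe, with the brightest probe of a gene as a filled diamond, the others as open circles, the moderated standard error as bars, a grey line joining the probes of a gene, and blue, green and orange for Fbxo, Fbxl and Fbxw. The probes of Fbxw7 lie 0.089 apart, whereas those of Fbxl17 and Fbxo2 lie more than 2 apart and on both sides of 0.

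The partner genes of the SCF ligase were read in the same fit, and their adjusted p-values are given although these lists, too, were drawn up with earlier results of these data known. None of the 3 core subunits passed: Cul1 read 1.45 and 1.49 in the input and 1.80 and 1.90 in the FLAG IP (limma adjusted p = 0.116), Skp1 read 3.79 and 3.83 against 3.42 and 3.05 (limma adjusted p = 0.0774), and Rbx1 read 5.18 and 5.10 against 4.55 and 3.79 (limma adjusted p = 0.0594). Of the 5 E2 enzymes that serve SCF ligases, 3 rose and 0 fell (28.0% and 25.4% of all genes did), with a list median of 0.80. They were Ube2d2a (1.37 ± 0.28, limma adjusted p = 0.0195), Ube2d1 (0.92 ± 0.24, limma adjusted p = 0.036) and Cdc34 (0.80 ± 0.20, limma adjusted p = 0.0338).

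Of 13 genes for Nedd8 attachment and cullin exchange, 6 rose and 2 fell (46.2% and 15.4%, beside 28.0% and 25.4% of all genes). The other 5 did not pass, and the list median was 0.53. Senp8, the protease that matures Nedd8 and strips it from proteins other than cullins, rose 9.12-fold, from 0.05 and 0.13 to 3.29 and 3.27 (limma adjusted p = 0.0038). Dcun1d3, a membrane-bound helper of cullin neddylation, rose from 0.80 and 0.63 to 3.51 and 3.10 (limma adjusted p = 0.00391). The exchange factor Cand1 (1.36 ± 0.17) and the subunits of the Nedd8-activating enzyme, Nae1 (1.23 ± 0.17) and Uba3 (1.14 ± 0.23), rose as well, as did Dcun1d2 (0.53 ± 0.16). Nedd8 itself fell 3.20-fold, from 4.40 and 4.39 to 3.03 and 2.40 (limma adjusted p = 0.0107). Cand2, the paralogue of Cand1, fell too (-0.94 ± 0.16, limma adjusted p = 0.0119).

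The 9 COP9 signalosome genes had a median of -0.33, with 4 lower, 1 higher and 4 that did not pass. That is 44.4% lower and 11.1% higher, beside 25.4% and 28.0% of all genes. Cops6 fell from 4.83 and 4.75 to 2.85 and 2.57 (limma adjusted p = 0.00398), and Cops3 from 2.93 and 2.84 to 0.44 and 1.35 (limma adjusted p = 0.0141). Cops5, the catalytic subunit that cleaves Nedd8 from cullins, fell by 1.07 (SE 0.19), and Gps1 by 1.03 (SE 0.16). Cops2 rose by 0.60 (SE 0.15). Of 8 other cullins and RING partners, Cul4b (1.11 ± 0.18), Cul5 (1.08 ± 0.20), Rnf7 (0.82 ± 0.17) and Cul3 (0.82 ± 0.22) rose, 0 fell and the median was 0.81.

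The APC/C, the ligase that Fbxo43 and Fbxo5 restrain, was represented by 14 genes with a median of -0.47. Of these, 2 rose, 5 fell and 7 did not pass (14.3% higher and 35.7% lower, beside 28.0% and 25.4% of all genes). Anapc13, a small scaffold subunit, fell 8.90-fold, from 5.24 and 5.27 to 1.88 and 2.32 (limma adjusted p = 0.0038). The activator Cdc20 fell by 0.85 (SE 0.25, limma adjusted p = 0.0479), and the largest scaffold subunit Anapc1 rose by 0.98 (SE 0.26, limma adjusted p = 0.0362). Over the 55 partner genes 17 rose and 11 fell, or 30.9% and 20%, near the 28.0% and 25.4% of all genes. This count was 2 and 3 without either of the input arrays, 2 and 6 with normexp background correction, 25 and 23 when FLAG IP replicate 1 was dropped, and 24 and 18 when FLAG IP replicate 2 was.

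**Figure D4:**
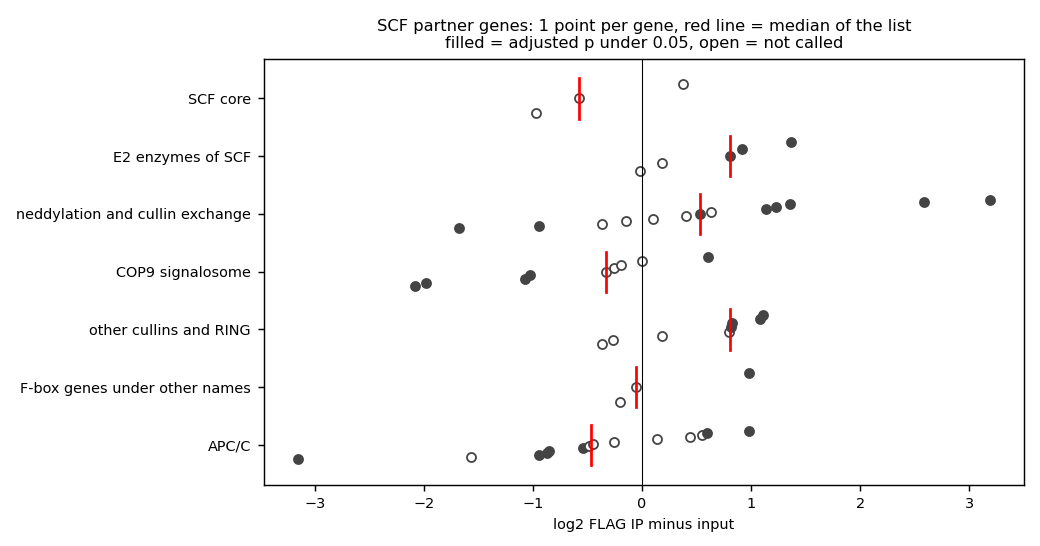
Difference between FLAG IP and input on the log2 scale (horizontal axis) for the 55 SCF partner genes by list, 1 point per gene, filled where the adjusted p was under 0.05 and open otherwise, with the list median as a red line and points spread vertically within a list for legibility. Senp8 at 3.19 and Anapc13 at -3.15 are the extremes, and the COP9 signalosome and APC/C medians lie below 0.

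Substrate receptors of other cullin ligases were set beside the F-box genes as a description. Of the 31 Klhl genes tested, receptors of Cul3 ligases, 10 were called higher and 7 lower (32.3% and 22.6%, near the shares of all genes), with a median of 0.31. Of the 15 Dcaf genes, receptors of Cul4 ligases, 6 were called higher and 1 lower (40.0% and 6.7%), with a median of 0.51. The F-box median of 0.80 lay above both, and whether the families differ was not tested.

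**Figure D5:**
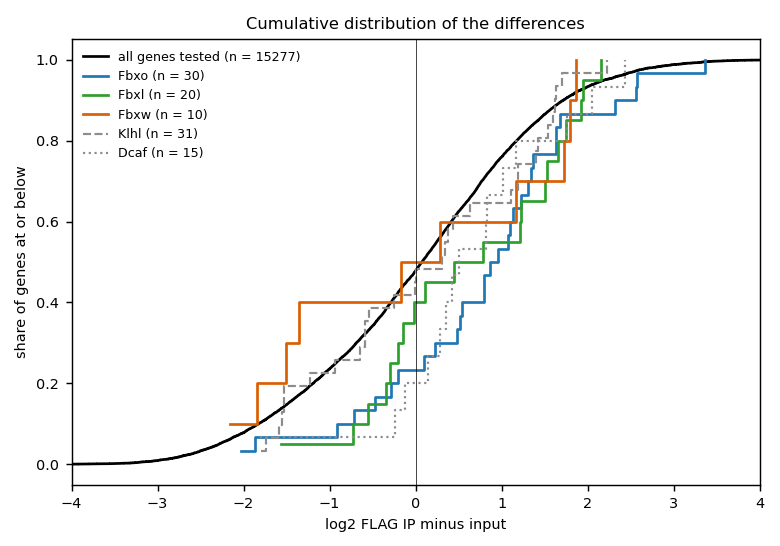
Cumulative share of genes, as a fraction (vertical axis), against the difference between FLAG IP and input on the log2 scale (horizontal axis, drawn from -4 to 4) for the Fbxo, Fbxl, Fbxw, Klhl and Dcaf genes and all 15277 genes tested. The Fbxo and Fbxl curves, with medians of 0.91 and 0.61, run to the right of that of all genes, with a median of 0.07, over most of the range, while the Fbxw curve, with a median of 0.05, crosses it.

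Cell type markers were read in the same contrast, where 28.0% of all genes tested were called higher and 25.4% lower. Of 7 germ cell markers, Dazl and Ddx4 rose, Dnd1 fell and 4 did not pass. That is 28.6% higher, near the share of all genes, and 14.3% lower. The summed level of the 7, in multiples of the array's 75th percentile, was 70.4 to 71.1 in the input and 115 to 131 in the FLAG IP. The somatic lists stood lower: the summed level of 6 Sertoli cell markers was 39.0 to 39.7 in the input and 7.50 to 8.88 in the FLAG IP, with 5 lower and Fgf9 higher. All 5 Leydig cell markers fell (126 to 139 against 19.3 to 20.01), as did all 5 mesenchyme markers (180 to 187 against 21.6 to 31.5), both macrophage markers measured (3.61 to 3.70 against 0.503 to 0.614) and all 3 erythroid markers (371 to 400 against 46.8 to 58.4). Of 4 endothelial markers, 2 fell and 0 rose (3.35 to 3.99 against 1.40 to 2.29). No marker was at or below background on both arrays of a group. In such bulk RNA, a level that comes from more cells and one that comes from more RNA per cell cannot be told apart. The part of the cell types in the F-box differences was not tested.

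The authors' deposited table gives a ratio of FLAG IP to input for each probe. In the authors' deposited table the ratio was 9.19 for Fbxo43, 0.983 for Fbxo5, 0.223 for Fbxo4 and 0.207 for Fbxw17. For 58 of the 60 genes the log2 of the ratio in the authors' deposited table had the sign found here, and the exceptions were Fbxo5 and Fbxl8. At the median, the log2 ratio of the authors' deposited table lay 0.12 below the difference given here. Its F-box median was 0.68 against -0.049 for all genes tested. Over the passing F-box probes, that log2 ratio minus the difference given here ran only from -0.164 to -0.118. With so constant a shift, the shared signs are not separate support.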

How the data were processed

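RNA of the input and FLAG IP groups (2 arrays each) was labelled with Cy3. The authors read the arrays with Feature Extraction 9.5 (submitters' processing notes). Their deposited scanner output gives a linear intensity per spot, already corrected for background per the file headers. The deposited series table holds a ratio that the authors computed between the groups, a raw intensity that equals the group mean of the processed signal within 1% for 99.9% of input and 99.8% of FLAG IP probes, and a deposited p-value, which was not used.

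Here log2 of the processed signal was scaled to the 75th percentile of each array over 43379 non-control spots. Outlier spots (52 to 104 per array) were dropped, so a fit could lack a spot, and no spot was saturated; 42.7% to 70.2% of spots per array were well above background. Probes had to be well above background on each array of either group, and the brightest probe stood for its gene. Names came from RefSeq (GRCm38.p6): 31004 probes matched by gene ID, 464 by symbol, 1108 kept the file's name and 8598 had none. The array headers give another build, so no coordinates are printed. The 4 arrays were fitted with limma 3.58.1 in R 4.3.3 (lmFit and eBayes, two-sided, 2 residual and 2.08 prior degrees of freedom), and the fit was tested on simulated data. With 2 arrays per group, the number of arrays limits the precision.

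Named were, per subgroup, up to 4 genes with the largest and 4 with the most negative differences, 14 fixed genes with known roles, genes whose probes lay on opposite sides of 0, and partner genes; others were named after their values were seen. The members and lists were chosen with earlier results of these data known. Alternatives were normexp background correction (offset 50), quantile or median scaling, other probe filters, the mean of probes, a replicate or slide block, other test settings, each probe alone, the authors' ratio and leaving out each array. The values of 1 F-box gene are not reported here, and it is left out of the figures that name genes, though it is in the counts.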

Additional observations from a re-analysis of the deposited data

How the results depend on the processing

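With 2 arrays per group the SE rests on 2 residual degrees of freedom, and the dim FLAG IP replicate 1 limits what is read at low levels; calls near the threshold move with the setting. With normexp background correction, 8 F-box genes were called higher and 3 lower, 2 and 6 partner genes, and 1274 and 1397 of all genes, and the F-box median was 0.63 (0.38 for all genes). With the slide as a block, which gives the estimates obtained without input replicate 1, these counts were 12 and 3, 2 and 3, and 1414 and 1517. Leaving out each array in turn gave 12 to 37 F-box genes higher and 3 to 16 lower, 2 to 25 partner genes higher and 3 to 23 lower, 1414 to 6853 of all genes higher and 1517 to 6211 lower, and an F-box median of 0.66 to 0.83. The cause of these shifts was not tested.

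The F-box median was 0.88 with quantile normalization (0.006 for all genes) and 0.66 with median centring (-0.058 for all genes). Without a filter on dim probes it was 0.96, where the median of all genes was 0.55. For the mean of probes it was 0.63 (0.025 for all genes), and from the authors' deposited ratio 0.68 (-0.049 for all genes). The F-box median was above 0 in every setting run. The settings share the 4 arrays whose contrast was known when the family was picked, so nothing is read from this. Without the filter, 7 partner genes were called higher. Quantile normalization, median centring and the filter on all 4 arrays kept the F-box counts within 1.5 times those given. Fbxl17 turned to -0.28 with the mean of probes, through a probe that was not well above background on either FLAG IP array. Leaving out 1 FLAG IP array turned the sign of several uncalled genes. Fbxl7 gave 0.40 without replicate 1 and -1.09 without replicate 2, Fbxo16 -0.79 and 1.76, Fbxo21 -0.26 and 0.73, and Fbxo22 0.65 and -1.05. Others turned too, such as Fbxo31 at 0.07 without replicate 1 and Fbxl22 at 0.17 without replicate 2.

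Same-numbered arrays shared only a number (r = 0.049 between their deviations over all genes, 2 pairs). With the replicate number as a block, 28 F-box genes were called higher and 7 lower, 12 and 11 partner genes, and 4134 and 3875 of all genes.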
